A study of Mus musculus with 8 samples.

Results

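A total of 3628 accessible regions were found only in cells given Klf4 and lay at the ends of protein-coding genes. The cells were MIN6, an established line from a mouse insulinoma that stands in for pancreatic beta cells. Chromatin accessibility was profiled by ATAC-seq, in which a transposase inserts adapters into nucleosome-free DNA and the sequenced fragments form peaks over open chromatin. The regions were selected on their presence in the Klf4 peak list, on the absence of any empty vector peak that overlaps them by 1 bp or more, and on a distance of at most 1 kb to either end of a protein-coding gene of GRCm38. They are called Klf4-only gene-end peaks below. They make up 3628 of the 17814 Klf4 peaks at gene ends, of the 47183 Klf4-only peaks in all, and of the 128499 Klf4 peaks on chromosomes 1 to 19 and X. With the 100049 empty vector peaks, both lists together hold 228548 peaks.

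Wild-type MIN6 cells were transfected for 48 hours with Lipofectamine 3000, carrying either the empty plasmid pcDNA 3 or the Klf4 expression plasmid pGloMyc-Klf4. Of the 8 libraries, described as biological replicates, 4 belong to each plasmid, and the values here come from 2 merged peak lists, 1 per plasmid. There is therefore no spread between replicates for any value below, and no test between the plasmids. The read depth behind the lists is unknown. A difference between the lists in depth and a difference in chromatin cannot be told apart, and the same holds for any difference between the plasmids other than Klf4 itself. Klf4 was overexpressed from a plasmid in a tumour-derived line, so the levels are not those of a normal islet. Intervals are 95% Wilson intervals over peaks, windows or genes. They reflect counting error alone, and peaks close together are not independent.

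Klf4 is a zinc finger transcription factor of the Krüppel-like family. It binds GC-rich DNA at CACCC boxes and related sites, is known for its part in epithelial differentiation, above all in the skin barrier and gut lining, and is one of the factors used to reprogram somatic cells to pluripotency. Promoters of broadly expressed genes are usually open and rich in CpG, while promoters of genes kept for other cell types are often closed.

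Promoters under strong Klf4-only peaks show what kind of sequence the peaks lie on. They are the 8 windows whose peaks have the highest significance among those that lie at a start and overlap the promoter window of their gene in the RefSeq table for GRCm38.p6. Each window runs from 250 bases before the start to 50 bases after it and is printed 5′ to 3′ on the gene's strand. Capitals mark the CACCC box, written CACCC on the printed strand or GGGTG where it lies on the other strand.
Zfp641, chr15:98296112-98296411, minus strand: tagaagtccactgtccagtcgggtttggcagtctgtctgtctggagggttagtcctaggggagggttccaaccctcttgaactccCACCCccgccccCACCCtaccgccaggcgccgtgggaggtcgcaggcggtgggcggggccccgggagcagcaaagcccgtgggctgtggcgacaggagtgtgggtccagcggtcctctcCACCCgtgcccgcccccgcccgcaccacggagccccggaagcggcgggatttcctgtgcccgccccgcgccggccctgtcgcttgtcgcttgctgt
Sppl2c, chr11:104186077-104186376, plus strand: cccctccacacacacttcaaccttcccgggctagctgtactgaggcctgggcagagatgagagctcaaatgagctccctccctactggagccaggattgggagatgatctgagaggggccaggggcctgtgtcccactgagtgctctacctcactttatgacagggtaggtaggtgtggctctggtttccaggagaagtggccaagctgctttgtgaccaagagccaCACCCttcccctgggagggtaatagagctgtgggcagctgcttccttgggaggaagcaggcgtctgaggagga
Mucl3, chr17:35643646-35643945, minus strand: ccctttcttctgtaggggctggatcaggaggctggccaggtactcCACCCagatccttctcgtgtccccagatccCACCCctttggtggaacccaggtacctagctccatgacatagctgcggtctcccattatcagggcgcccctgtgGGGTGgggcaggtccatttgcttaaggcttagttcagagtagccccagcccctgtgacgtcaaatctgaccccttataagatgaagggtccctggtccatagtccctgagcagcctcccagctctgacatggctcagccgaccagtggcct
Kcnk7, chr19:5704221-5704520, plus strand: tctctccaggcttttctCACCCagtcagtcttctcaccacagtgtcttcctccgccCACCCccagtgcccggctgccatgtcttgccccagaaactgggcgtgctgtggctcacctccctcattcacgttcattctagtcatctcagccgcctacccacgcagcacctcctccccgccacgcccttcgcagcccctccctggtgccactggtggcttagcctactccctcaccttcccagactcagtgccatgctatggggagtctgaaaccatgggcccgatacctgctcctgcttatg
Hebp1, chr6:135168166-135168465, minus strand: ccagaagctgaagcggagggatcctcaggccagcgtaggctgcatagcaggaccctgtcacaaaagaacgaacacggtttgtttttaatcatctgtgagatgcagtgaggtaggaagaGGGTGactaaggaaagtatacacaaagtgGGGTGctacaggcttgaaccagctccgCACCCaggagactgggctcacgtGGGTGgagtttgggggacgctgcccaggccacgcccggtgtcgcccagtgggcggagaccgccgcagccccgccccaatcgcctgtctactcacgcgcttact
Pxdc1, chr13:34652632-34652931, minus strand: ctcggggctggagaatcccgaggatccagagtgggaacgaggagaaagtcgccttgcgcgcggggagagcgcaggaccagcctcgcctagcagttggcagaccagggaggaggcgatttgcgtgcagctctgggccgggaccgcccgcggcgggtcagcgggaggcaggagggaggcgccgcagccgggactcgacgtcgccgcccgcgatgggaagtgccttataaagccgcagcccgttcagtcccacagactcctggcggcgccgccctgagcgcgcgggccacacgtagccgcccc
Myo3a, chr2:22227253-22227552, plus strand: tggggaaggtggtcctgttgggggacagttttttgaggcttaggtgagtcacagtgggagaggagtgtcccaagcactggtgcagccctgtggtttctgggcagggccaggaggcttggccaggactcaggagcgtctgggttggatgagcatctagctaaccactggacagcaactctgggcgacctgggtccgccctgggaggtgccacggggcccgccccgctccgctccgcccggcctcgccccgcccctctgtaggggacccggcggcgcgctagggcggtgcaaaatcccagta
Lgals4, chr7:28833544-28833843, plus strand: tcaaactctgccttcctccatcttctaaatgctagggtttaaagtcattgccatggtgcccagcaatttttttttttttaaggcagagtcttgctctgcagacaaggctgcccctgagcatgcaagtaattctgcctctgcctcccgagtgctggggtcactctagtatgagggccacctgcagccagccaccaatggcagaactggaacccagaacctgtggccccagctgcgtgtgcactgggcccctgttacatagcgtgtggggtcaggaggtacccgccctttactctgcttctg

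The Hebp1 window, at the start of a heme-binding protein gene, holds 4 CACCC boxes, and 210 of its bases lay under the peak. The windows of Zfp641, a zinc finger protein gene, and of Mucl3, a mucin-like gene, hold 3 boxes each. Kcnk7, a gene of the tandem-pore potassium channel family, has 2 boxes, and Sppl2c, which encodes an intramembrane protease, has 1. The other 3 windows have no box: Pxdc1, with 36 CpG dinucleotides and 71.3% G+C, Myo3a, a myosin gene, and Lgals4, which encodes a galectin of the gut lining. Only 52 bases of the Lgals4 window lay under its peak. The printed promoters thus differ widely in base composition, from 2 CpG in Sppl2c to 36 in Pxdc1. An empty vector peak lay within 1 kb of the Lgals4 start, and none lay within 1 kb of the other 7 starts.

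The CACCC box was more frequent in promoter windows under Klf4-only gene-end peaks than in windows under peaks of both plasmids, empty-vector-only peaks or no peak. It was found on either strand in 749 of 947 such windows (79.1%, interval 76.4 to 81.6%). It was in 65.0% (64.1 to 65.8%) of 12715 windows under peaks of both plasmids, in 47.1% (45.9 to 48.3%) of 7029 windows under no peak, and in 59.8% of all 21020 windows. Windows under empty-vector-only peaks held it in 46 of 84 cases (54.8%, 44.1 to 65.0%). Klf4-only peaks that reach a window but lie over 1 kb from the gene's outer end gave a like share, 82.4% (77.2 to 86.7%) of 245 windows. Boxes also came in greater number: 50.9% of the windows under Klf4-only gene-end peaks held 2 or more, against 30.5% under peaks of both plasmids and 18.1% under no peak. A match to these letters is a description of the sequence and not a binding site, and Klf4 binding itself was not measured here.

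Base composition alone changes how often such letters occur, so the windows were split into 4 classes of about equal size by their G+C content. In the lowest class the box was in 64.6% (50.4 to 76.6%) of 48 windows under Klf4-only gene-end peaks and in 41.2% (37.8 to 44.8%) under peaks of both plasmids. In the second class the values were 77.3% (72.3 to 81.7%) and 57.9% (56.0 to 59.7%), and in the third 83.0% (78.9 to 86.4%) and 66.9% (65.4 to 68.3%). In the class richest in G+C they came closer, at 78.0% and 70.8%. Windows under no peak lay below the Klf4-only windows in each class, at 35.3, 62.6, 73.8 and 73.0%, with overlapping intervals in the highest. Windows under empty-vector-only peaks were few, 28, 40, 13 and 3 in the classes, and 10, 24, 10 and 2 of them held the box. Their intervals overlapped those of the Klf4-only windows in all 4 classes, so that difference is not separated from G+C content at this number. The plot of box frequency by G+C shows the 4 classes.

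**Figure D1:**
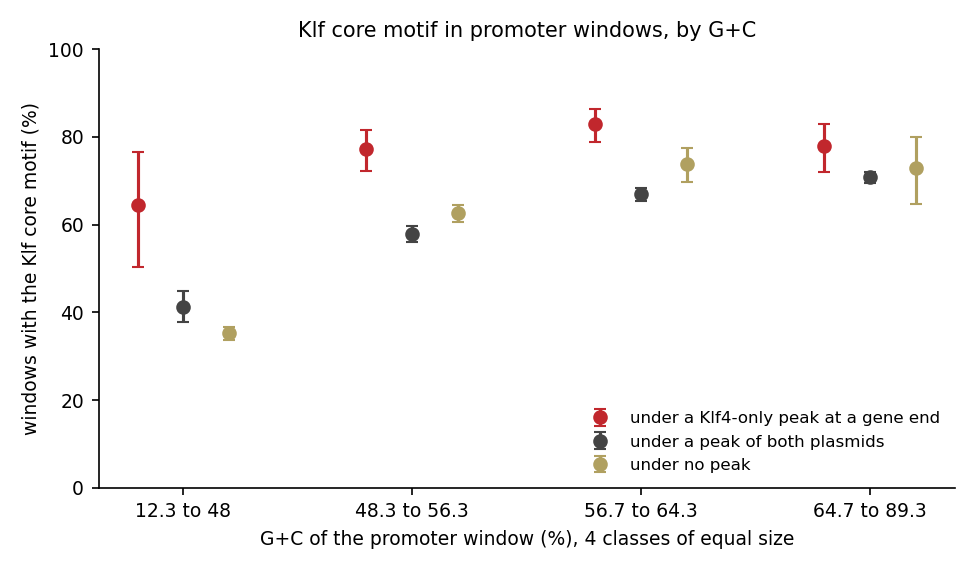
Share of promoter windows that hold the CACCC box, named Klf core motif in the plot, on either strand (%, vertical axis) by class of G+C content (%, horizontal axis), for windows under a Klf4-only gene-end peak, a peak of both plasmids, or no peak. Bars are 95% Wilson intervals, and the Klf4-only windows have the highest share in each class, from 64.6% in the lowest to 83.0% in the third.

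The share of windows with a box hardly varied with the strength of the peak over them. It was 77.4% for Klf4-only gene-end peaks with a −log10 q under 5, and 80.3%, 79.4% and 81.7% for those of 5 to 10, 10 to 20, and 20 or more. The −log10 q is the peak caller's significance score for a peak, as the authors deposited it, and larger means stronger evidence against background. Windows under peaks of both plasmids stood at 62.8, 65.4, 71.3 and 64.4% in the same classes. In each class the Klf4-only windows held the box more often. The class of 20 or more has no upper limit, so strength is not alike within it. Only 5 Klf4-only gene-end peaks reached 50, while gene-end peaks of both plasmids had a median of 48.1. That class sets 60 Klf4-only windows, with a median of 10.5 CpG, against 10943 windows with 22. The intervals were apart in each class but that of 10 to 20, where 74.0 to 84.0% met 68.6 to 74.0%.

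Longer forms of the Klf4 site gave a mixed picture. GGGTGTGG, which contains the box on its other strand, was in 5.49% (4.21 to 7.13%) of the windows under Klf4-only gene-end peaks, in 3.73% (3.41 to 4.07%) under peaks of both plasmids and in 3.65% of all windows. GGGCGTGG, which does not contain the box, was in 8.24% (6.65 to 10.2%), 10.1% (9.59 to 10.6%) and 7.04%. The form with T was thus also more frequent than under peaks of both plasmids, and the form with C was not; neither was split by G+C content. Both were searched on either strand.

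Sites known for other promoter factors also differed in frequency from those of windows open with both plasmids. The GC box GGGCGG, known as a site of Sp factors, was in 50.8% (47.6 to 54.0%) of windows under Klf4-only gene-end peaks against 66.6% (65.7 to 67.4%) under peaks of both plasmids and 46.6% of all windows. By G+C class the shares were 20.8% and 16.3%, 25% and 40.6%, 53.7% and 66.8%, and 87.0% and 88.2%, so that the intervals were apart in the second class and the third and overlapped in the lowest and highest. Windows under no peak held the GC box less often than Klf4-only windows in each class, in 3.07, 14.1, 40.2 and 79.4%, with overlapping intervals in the highest. The next 3 motifs were not split by G+C content. CCGGAAG, the core bound by ETS factors and typical of housekeeping promoters, was in 3.70% (2.67 to 5.10%) against 17.7% (17.0 to 18.3%), with 11.7% over all windows. The cyclic AMP response element TGACGTCA was in 0.950% against 3.24%, and 2.26% over all. CCAAT, bound by NF-Y, was in 30.7% (27.9 to 33.7%) against 37.9% (37.1 to 38.8%), and 38.5% over all. TGACTCA, the AP-1 site, went the other way, at 7.18% (5.70 to 9.0%) against 3.33% (3.04 to 3.66%), with 6.60% under no peak and 4.69% over all windows. Within the second G+C class it was in 9.33% (6.54 to 13.2%) of windows under Klf4-only gene-end peaks, 4.95% (4.20 to 5.82%) under peaks of both plasmids and 5.24% (4.38 to 6.26%) under no peak. In the third class the shares were 7.71% (5.42 to 10.9%), 3.38% (2.87 to 3.96%) and 4.67% (3.13 to 6.90%). In the lowest and highest classes they were 8.33, 5.35 and 7.67%, and 3.14, 2.11 and 1.59%, where the intervals of all 3 overlapped. The Klf4-only interval was thus apart from that of peaks of both plasmids in the second class and the third, and from that of no peak in the second alone.

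These promoters were also poorer in CpG than those open with both plasmids. The median window under a Klf4-only gene-end peak had 9 CpG and 58.7% G+C, against 21 CpG and 62.0% under a peak of both plasmids. Windows under no peak had 3 CpG and 46.0% G+C, so the Klf4-only windows lay between the other classes. A total of 875 Klf4-only gene-end peaks (24.1%) overlapped a promoter window of the table, and the sequence results rest on these. They do not cover the remaining peaks, which lie further from a start, at the other end of a gene or at a gene without a window.

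Klf4-only gene-end peaks were small and weak beside the other peaks at gene ends. Their median width was 491 bp, with quartiles of 294 and 817 bp, against 1120 bp for the Klf4 peaks at gene ends found with both plasmids. Their median fold enrichment over local background, a ratio the authors' peak caller assigns to each peak, was 3.16 against 5.75. Their median −log10 q was 5.57 against 48.1. A peak in 1 list only will tend to be a weak one, since a threshold on significance decides presence, so these differences follow in part from how the peaks were selected.

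Klf4-only peaks away from gene ends were narrower at about the same fold, with medians of 347 bp and 3.30, and their median −log10 q was 4.69. For the 694 empty-vector-only gene-end peaks the medians in their own list were 308 bp, 2.78 and 2.46. Few of the Klf4-only gene-end peaks were strong: 886 (24.4%) had a −log10 q of at least 10, 181 of at least 20, 5 of at least 50 and 1 of at least 100. The plot of width, fold enrichment and strength shows the 4 sets.

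**Figure D2:**
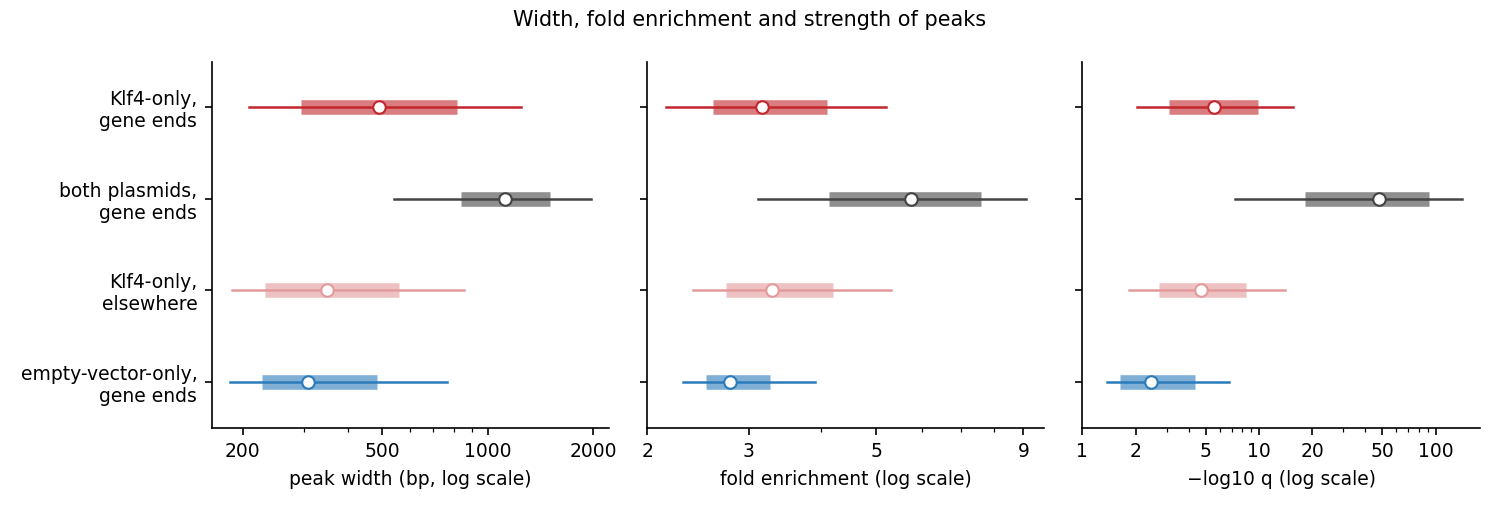
Peak width in bp, fold enrichment and −log10 q (horizontal log axes) of Klf4-only gene-end peaks, peaks of both plasmids at gene ends (Klf4 list), Klf4-only peaks elsewhere and empty-vector-only gene-end peaks. Circles are medians, thick bars span the quartiles and thin lines the tenth to ninetieth percentiles, and the Klf4-only gene-end peaks have a median width of 491 bp against 1120 bp for those of both plasmids.

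Klf4-only peaks were a smaller part of the Klf4 peaks at gene ends than of all Klf4 peaks. Of all Klf4 peaks used, 36.7% had no empty vector peak over them, and of those at gene ends 20.4% (19.8 to 21.0%). The direction depended on strength. Among weak peaks the Klf4-only share was higher at gene ends than elsewhere: 71.8% and 65.6% at a −log10 q of 1 to 2, 63.3% and 52.1% at 2 to 5, and 48.6% and 41.1% at 5 to 10. From 10 to 20 it was 28.9% and 29.9%. Among strong peaks, of 20 to 50, it was 4.79% at gene ends and 13.8% elsewhere, and at 50 or more 0.0723% and 1.81%. The lower share at gene ends as a whole therefore went with strong peaks, of which gene ends hold many.

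At the limits of the rule the peaks were ordinary. The 5 peaks just inside 1 kb lay 997 to 999 bp from an end of Dact2, Has1, Adap2, Sult1a1 and Lpin2, with −log10 q of 3.45 to 10.6. The 5 just outside lay 1001 or 1002 bp away, with −log10 q of 2.07 to 15. The nearest empty vector peak was 13 bp from a member at the start of Colec11, and the least overlapped peak, at Arhgef15, was left out because an empty vector peak covered 1 bp of it. The median distance from a Klf4-only gene-end peak to the nearest empty vector peak was 4230 bp, and 335 peaks (9.23%) had such a peak within 1 kb.

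Which end of the gene a peak lay at was no part of the selection. The strand was known for 17274 of 21631 coding genes, and 2844 of the peaks lay at such a gene. Of these, 1326 (46.6%, 44.8 to 48.5%) were within 1 kb of a start and 1518 (53.4%) within 1 kb of the other end only. Gene-end peaks of both plasmids were at starts far more often, in 9669 of 11492 cases (84.1%, 83.5 to 84.8%), and empty-vector-only gene-end peaks less often, in 166 of 560 (29.6%, 26.0 to 33.6%). The remaining 784 Klf4-only peaks (21.6%) lay only at genes whose strand was not given.

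Peaks at starts were somewhat stronger than peaks at the other end. The 1164 at a start only had a median −log10 q of 6.15 and a median width of 522 bp, and the 1518 at the other end only had 4.99 and 440 bp. The share at a start was 42.2% (39.5 to 44.9%) among peaks with a −log10 q under 5, 48.7% (45.3 to 52.1%) from 5 to 10 and 52.7% (48.5 to 56.8%) from 10 to 20. It rose no further at 20 or more, with 76 of 145 peaks (52.4%, 44.3 to 60.4%) at a start. By width the share also differed. It was 40.6% for peaks under 300 bp and 53.7% for those of 1000 bp or more. A gene end itself was covered by 32.7% of the peaks, against 77.6% of the gene-end peaks of both plasmids.

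The density of Klf4-only peak centres was highest at starts, with a smaller rise just inside the other ends. Within 500 bp of a start there were 52.3 Klf4-only centres per kb and 1000 genes, against 22.4 at 4 to 5 kb, a ratio of 2.33. For peaks of both plasmids the ratio was 14.3, and for empty-vector-only peaks 1.07. Around the other end the ratios were 0.928, 0.838 and 1.12. That average hides a local pattern at the other end. In the 250 bp bins from 1000 to 500 bp before it, inside the gene, there were 14.0 and 14.2 Klf4-only centres per 1000 ends, against 7.53 to 10.6 in the bins 4 to 5 kb before it. In the bins on either side of the end itself there were 7.06 and 6.08. Peaks of both plasmids had 12.7 and 12.4 in those bins inside the gene and 9.55 and 11.3 around the end. The plot of centres around gene ends shows both profiles.

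**Figure D3:**
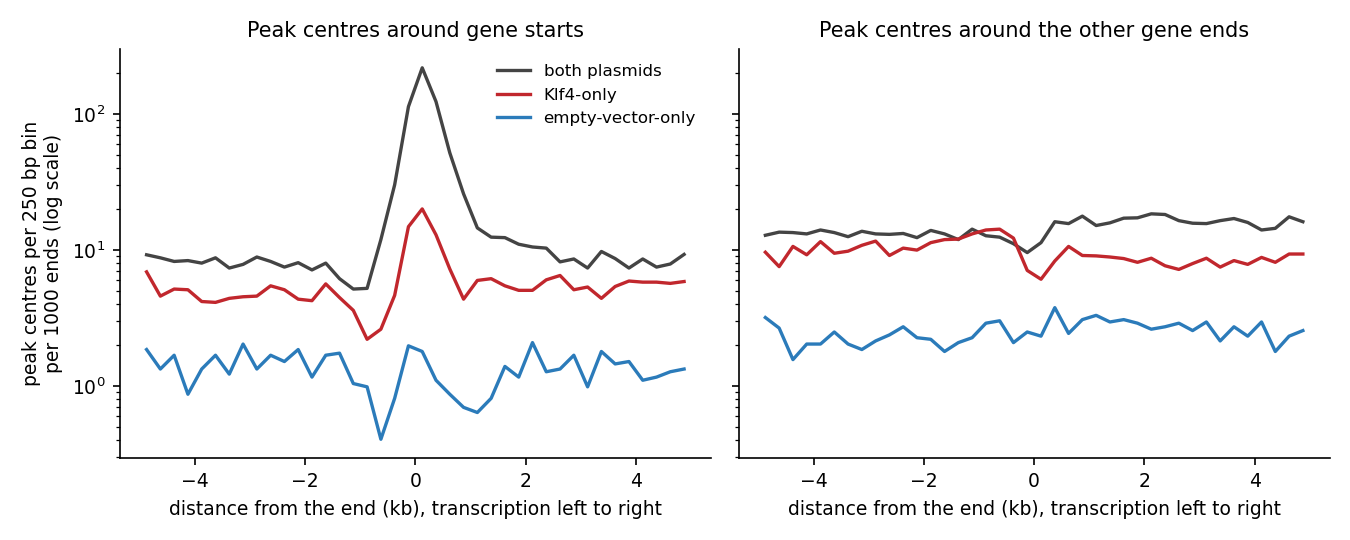
Peak centres per 250 bp bin and 1000 gene ends (vertical log axis) by distance in kb from the start (left) or the other end (right) of coding genes of known strand, with transcription running left to right. Klf4-only, both-plasmid and empty-vector-only peaks are drawn as separate lines; Klf4-only centres peak at starts, at 2.33 times their density 4 to 5 kb away, with a smaller rise to 14.2 per bin just inside the other ends.

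Seen by gene, 3624 of 21631 coding genes (16.8%) had a Klf4-only peak within 1 kb of an end. Among the genes of known strand, 1313 (7.60%) had a peak at the start and 1767 (10.2%) at the other end. Of the 1313, 1225 (93.3%) had no empty vector peak at all within 1 kb of that start. Of the 6592 starts without an empty vector peak, 18.6% (17.7 to 19.5%) gained a Klf4-only peak, against 0.824% of the 10682 starts that had an empty vector peak. The selection bears on these values, since a Klf4 peak that overlaps an empty vector peak is left out, so they are a description only.

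Of the 1767 genes with a peak at the other end, 72.3% (70.1 to 74.3%) had an empty vector peak at the start, against 60.7% (59.9 to 61.4%) of the genes with no such peak. Most genes had a single Klf4-only peak: 3251 had 1, 349 had 2, 23 had 3 and 1 had 4. A total of 377 peaks (10.4%) were within 1 kb of ends of more than 1 gene, and for these the peak cannot be given to a single gene.

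The most significant Klf4-only gene-end peak lay 78 bp from the other end of Prkag1, which encodes a regulatory subunit of AMP-activated protein kinase. It was 841 bp wide (chr15:98812875-98813715), with a −log10 q of 101.1 at a fold of 4.61, and the nearest empty vector peak was 3481 bp away. The second was at the start of Zfp641 (chr15:98295725-98296514), 790 bp wide and with a −log10 q of 84.8 at a fold of 7.23. Both lie within 97 to 100 Mb of chromosome 15, as does the peak at Ddn, the gene of the neuronal and kidney protein dendrin. That segment held 20 of the members, with −log10 q from 1.70 at Rpap3 to 101.1 at Prkag1. On chromosome 15 as a whole 188 of 805 Klf4 peaks at gene ends (23.4%) were Klf4-only, against 20.4% over all chromosomes used. The share within the segment was not counted, so the 20 cannot be called many or few. The Ddn peak joined a −log10 q of 44.9 to a fold of only 2.53, whereas the Anxa3 peak had 60.6 with a fold of 8.75. In the same segment as Ddn, Smarcd1 had 20.2 at a fold of 1.75 and Asic1 12.6 at 1.77, while Rpap3 had 1.70 at 2.20. Ranks by −log10 q are thus not ranks by fold, and peaks of this segment may not compare with those elsewhere. The cause was not tested.

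The other peaks among the 12 most significant were spread over the genome. Nmi, whose protein binds STAT factors, had a peak of 1627 bp beyond its other end with a −log10 q of 62.0. Anxa3, an annexin gene, had the peak of 60.6, and Sap30bp, which encodes a partner of the SAP30 corepressor subunit, had 50.3 at its other end. Ap1m1, the gene of a medium chain of the AP-1 clathrin adaptor, had 43.8 within 352 bp of an end. Sppl2c, Mucl3, Kcnk7, Hebp1 and Pxdc1 had 45.4, 43.8, 41.7, 41.4 and 41.2, each at the start whose sequence is printed above. Among these 12 peaks, 6 were thus at a start, 3 at the other end and 3 at a gene without known strand.

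Other peaks stood out by width or fold. The widest, 3273 bp, covered an end of Adgrb1, an adhesion G protein receptor gene, with a fold of 2.26. Those at Zfp740 and Itgb7, at Trip6 and Slc12a9, at Klk13 and at Nkx2-9 were 3023, 3014, 2939 and 2919 bp wide, with −log10 q between 3.54 and 7.77. The highest fold was 9.41 at the start of Klhl5, followed by Olfr324 (9.13), Hs3st1 (9.05), Krtap4-16 (8.95) and Prdm9 (8.93). The 5 peaks of highest fold were 418 to 837 bp wide, so the widest and the steepest peaks were different ones.

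A total of 24 genes had 3 or more Klf4-only gene-end peaks. Aldh3b3, an aldehyde dehydrogenase gene, had 4, with 2 within 1 kb of its start and 2 at its other end, and −log10 q of 4.53 to 12.8. Of the 23 genes with 3, Tjp3, a tight junction scaffold gene, is also in the keratin and epithelial junction list described below. The matrix protease gene Mmp14 had a peak of 2406 bp at its start and 2 peaks at its other end, with −log10 q of 12.4, 12.4 and 16.7. The others were Anxa8, Atp2a1, Cldn19, Defb36, Esam, Espn, Fat2, Gpr108, Hsd17b2, Lad1, Lims2, Ly6g6c, Ly6g6g, Mylk2, Npepl1, Phox2a, Prss27, Psapl1, Sardh, Spata21 and Tnfrsf25.

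Gene groups were compared in how many of their members had a Klf4-only gene-end peak, beside 16.8% of all coding genes. The count was also taken over the genes with no empty vector peak within 1 kb of either end, called closed genes here. The term refers to the ends alone, and a closed gene can hold an empty vector peak further inside. Of all coding genes, 5088 (23.5%) had no empty vector peak in the gene or within 1 kb. Among the 3624 genes with a Klf4-only gene-end peak, 798 (22.0%) had none. Of all 7408 closed coding genes, 1635 (22.1%) had a Klf4-only peak at an end. That background holds many olfactory and vomeronasal receptor genes, of which few had a peak, and without them it was 1621 of 5981 (27.1%, 26.0 to 28.2%). Genes of a cluster share chromatin and sometimes peaks, so the genes of a group are not independent.

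The keratin and epithelial junction list, genes of the kind Klf4 is known for, had peaks at 23 of 49 genes (46.9%). Of its 20 closed genes, 16 (80.0%) had one. The 29 peaks of the list had a median −log10 q of 5.92, from 1.49 to 27.4, and a median fold of 2.94. The peaks at Tgm1, Dsp and Cldn7, given next, lie above that median −log10 q. Tgm1, the cross-linking enzyme of the cornified envelope, had a peak on its start with a −log10 q of 16.7 and another at its other end with 20.4. Dsp, the gene of desmoplakin in desmosomes, had a peak on its start with 17.4 and a fold of 4.72. Cldn7, of tight junctions, had 16.9 at its other end. The factors Grhl2 and Ovol1, regulators of epithelial genes, had weaker peaks, with 2.65 and 4.37. The other listed genes with a peak were Krt4, Krt5, Krt7, Krt13, Krt14, Krt15, Krt17, Krt18, Krt19, Cldn4, Tjp3, Esrp1, Ppl, Pkp3, Perp, Lama3, Prss8 and Muc2.

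Keratin genes as a family had peaks at 24 of 53 genes (45.3%), and at 22 of the 41 closed ones (53.7%). Their 28 peaks had a median −log10 q of 4.89, from 1.38 to 28.6, and 17 of them covered a gene end. The strongest were at Krt16, of stressed and healing skin, with 28.6 and a fold of 6.73, at Krt19, a keratin of simple epithelia and ducts, with 18.9, and at Krt2 and Krt17. The basal keratin Krt14 had 2 peaks at its start, with 12.8 and 7.68, while its partner Krt5 had 1 near the threshold, with 1.49. Claudins had peaks at 8 of 35 genes and at 7 of 26 closed ones (26.9%), near the background of closed genes.

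Clustered homeobox genes, which pattern the body axis, had the highest share of the larger families. Of 39 Hox genes, 30 (76.9%) had a Klf4-only gene-end peak, and of 31 closed ones 27 (87.1%). The 37 peaks were wide, with a median of 922 bp, and of moderate strength, with a median −log10 q of 6.72 and a range of 1.52 to 17.4. The strongest touched a gene body, within 1 kb of the Hoxa5 start and of the other end of Hoxa6. The next were at Hoxc6 (14.2) and Hoxd12 (14.0). Among the 22 Hox genes of known strand, 15 had a peak at the start and 8 at the other end. The peaks were at genes of all 4 clusters, for example Hoxb4 with a fold of 4.20 and Hoxd1 with 5.67. The median distance to an empty vector peak was 8880 bp, against 4230 bp for all Klf4-only gene-end peaks.

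Other families of developmental regulators and signals showed high shares of small numbers. Forkhead factors had peaks at 15 of 44 genes and at 7 of 8 closed ones, led by Foxi3 (−log10 q 22.9) and Foxd4 (20.3). Sox factors had 8 of 19 and 7 of 8, led by Sox7 (10.7). Fibroblast growth factors had 10 of 22 and 6 of 7, with Fgf4 at 19.4 and Fgf23, a phosphate-regulating hormone, at 12.6. Wnt ligands had 7 of 19 and 4 of 5, with Wnt3a at 17.1. In each of these families most genes already had an empty vector peak at an end.

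Receptor families of the nose lay at the other extreme. Olfactory receptors had peaks at 14 of 1110 genes (1.26%) and at 13 of 1075 closed ones, and vomeronasal receptors at 1 of 355 (0.282%). Almost all of these genes are closed, 1075 and 352 of them. Olfr324, at a −log10 q of 27.4, fold 9.13, was the strongest exception. Serpins had peaks at 7 of 63 genes (11.1%, 5.49 to 21.2%), an interval that includes the 16.8% of all coding genes. Among closed serpin genes 2 of 41 (4.88%) had one. The strongest peak of the family was at Serpina12 (29.2).

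Solute carriers and potassium channels had shares of closed genes whose intervals lay above the 27.1% background. Solute carriers had peaks at 86 of 375 genes (22.9%) and at 45 of 112 closed ones (40.2%, 31.6 to 49.4%), led by Slc12a7, a potassium-chloride cotransporter gene, with a −log10 q of 33.9. Potassium channels had 21 of 81 and 12 of 26 (46.2%, 28.8 to 64.5%), led by Kcnk7 and followed by Kcnn4 (19) and Kcnk5 (17.6). In 4 further families the interval of the closed-gene share included 27.1%. Genes with a Tmem symbol had 40 of 238 (16.8%) and 15 of 37 (40.5%, 26.3 to 56.5%). Genes with a Ccl, Cxcl or Il symbol, chemokines, interleukins and their receptors, had 30 of 120 and 23 of 72 (31.9%, 22.3 to 43.4%), with Il21r at 21.8. Collagens had 14 of 44 and 9 of 22 (40.9%, 23.3 to 61.3%), and adhesion and orphan G protein receptors had 21 of 102 and 12 of 38 (31.6%, 19.1 to 47.5%).

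Several other families had lower shares than all coding genes, not all of them beyond counting error. Ribosomal protein genes had a Klf4-only gene-end peak at 3 of 80 genes (3.75%, 1.28 to 10.5%) and Zfp genes at 35 of 397 (8.82%, 6.41 to 12%). Rab GTPases had 7 of 69 (10.1%, 5.0 to 19.5%), genes with an Nduf symbol, most of them of respiratory complex I, 6 of 49 (12.2%, 5.73 to 24.2%), and proteasome genes 5 of 40 (12.5%, 5.46 to 26.1%), and the intervals of the last 3 groups include 16.8%. Among closed genes the shares were 15 of 66 for Zfp genes (22.7%), close to the background, and 0 of 5, 2 of 5, 1 of 3 and 0 of 3 for the ribosomal, Rab, Nduf and proteasome groups. Most of these genes had a peak of both plasmids at an end, 75 of the 80 ribosomal protein genes and 328 of the Zfp genes among them. In the Nduf and proteasome groups 4 genes each had a Klf4-only peak at the other end, and none of known strand had one at the start. Protocadherins had peaks at 16 of 69 genes but only 3 peaks, since 14 genes of the alpha cluster share an end and a single peak.

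**Figure D4:**
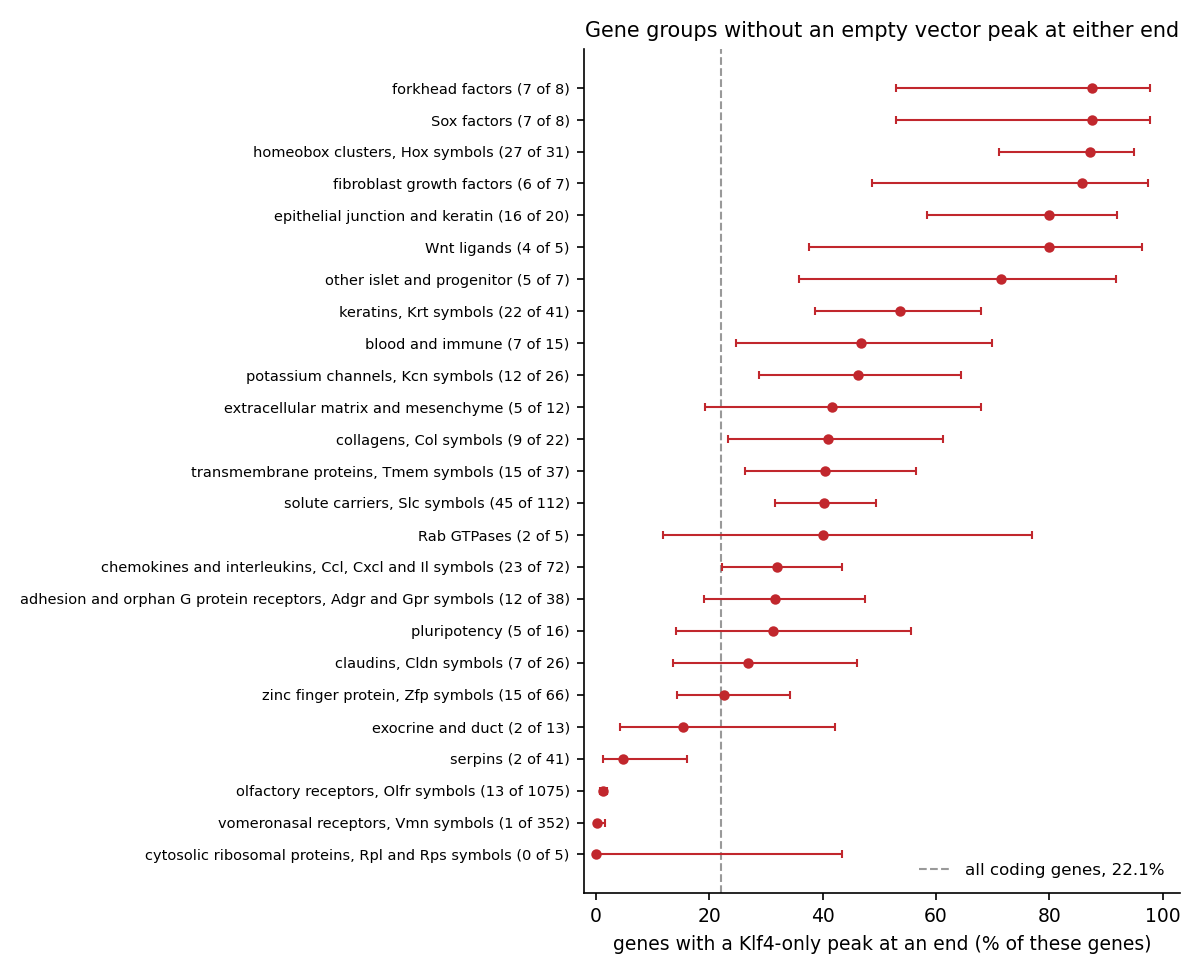
Share of genes with a Klf4-only peak within 1 kb of an end (%, horizontal axis) among the genes with no empty vector peak at either end, for each gene list or family with at least 5 such genes (numbers in parentheses). Points are shares with 95% Wilson intervals and the dashed line is the share of all such coding genes, 22.1%; Hox genes stand at 87.1% and olfactory receptors at 1.21%.

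Beta cell identity genes had no Klf4-only gene-end peak. None of the 20 listed genes had one, which allows a share of up to 16.1% by the interval, beside 16.8% of all coding genes. None of the 20 was closed, and 19 had a peak of both plasmids at an end, so the selection bears on this count. As a check of the labelled cell type, the empty vector list had peaks at the ends of all 8 marker genes (Ins1, Ins2, Pdx1, Mafa, Nkx6-1, Neurod1, Iapp and Slc2a2), and the Klf4 list at 7 of them. Slc2a2, the glucose transporter gene of rodent beta cells, had 1 empty vector peak at its ends and no Klf4 peak. The Klf4 gene itself had 2 empty vector peaks at its ends and none in the Klf4 list. The peak lists give presence at a threshold only, so they do not say by how much accessibility there differed.

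Genes of other islet and pancreatic cells had Klf4-only peaks at some ends. In the alpha cell list 3 of 13 genes found in the gene table (23.1%, 8.18 to 50.3%) had one, and 2 of 2 closed ones. These genes had 4 peaks in all, none of them at a −log10 q above 4.29. In the list of other islet and progenitor genes 8 of 23 (34.8%) had one, and 5 of 7 closed ones (35.9 to 91.8%). The strongest were at Hhex, a factor of delta cells, with 18.7 close to its start, at Ptf1a, a factor of pancreatic progenitors and acinar cells, with 14.9 over its start, and at Pax4, an endocrine factor, with 10.6. Ppy, Pyy, Sox9, Onecut1 and Foxa2 had peaks of 1.61 to 6.53. Of 22 exocrine and duct genes, Rbpjl, Krt19, Krt7, Cftr and Muc1 had one (22.7%), and of the 13 closed ones 2 (15.4%, 4.33 to 42.2%). With so few genes, the intervals of the alpha cell and exocrine shares over all their genes include the 16.8% of all coding genes. The chloride channel gene Cftr had a peak over its start with 15 and a fold of 6.65, 79110 bp from the nearest empty vector peak.

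The pluripotency list, which holds other genes of the reprogramming network, had peaks at 6 of 24 genes, with an interval that includes 16.8%, and at 5 of 16 closed ones (31.2%). Fgf4 had a −log10 q of 19.4 over its start and Sall4 had 13.4. Pou5f1, which encodes Oct4, had a peak of 1360 bp over its start with 6.98, and Sox2 had one of 2018 bp with 7.02. Utf1 and Tcl1 had 8.91 and 4.53. The group's share of closed genes was close to the 27.1% of closed genes other than the nasal receptors. In the list of Krüppel-like and Sp factors 3 of 26 (11.5%, with an interval that includes 16.8%) had a peak: Klf17 with 15 over its start, Klf7 with 4.48 at its other end and Klf15 with 1.22 near its start.

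Lists of other tissues and functions were set beside the 16.8% of all coding genes. The extracellular matrix and mesenchyme list had 10 of 26 (38.5%, 22.4 to 57.5%) and 5 of 12 closed ones (41.7%, 19.3 to 68.0%), led by Sparc, a matrix-binding protein gene, with 31.2 and a fold of 7.21 over its start, and by Lox, a collagen cross-linking enzyme gene, with 14.3. The blood and immune list had 10 of 23 (43.5%, 25.6 to 63.2%) and 7 of 15 closed ones (46.7%, 24.8 to 69.9%), with Gata2 at 12.2, Cd8a at 11.9 and the myeloid factor gene Spi1 at 10.5. Both closed-gene intervals include 27.1%. In 3 lists with fewer genes called the interval of the share included 16.8%. In the neuronal list Nefh, Slc17a7 and Elavl3 had one, 3 of 22 (13.6%, 4.75 to 33.3%). The cell cycle list had 4 of 31 (12.9%, 5.13 to 28.9%), with Cdkn2a, Ccnd3, Trp53 and Cdc25a at 3.12 to 8.59, and the list of AP-1 and immediate early genes had 2 of 20 (2.79 to 30.1%), Atf3 and Egr3. None of the 28 interferon response genes found had a Klf4-only gene-end peak, which allows a share of up to 12.1% by the interval. Of these genes 25 had a peak of both plasmids and 3 were closed.

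Klf4-only peaks were a larger part of the gene-end peaks on some chromosomes than on others. The share was highest on chromosome 7, at 26.6% (24.4 to 29.0%), followed by chromosome 11 with 23.7% (21.7 to 25.9%) and chromosome 15 with 23.4% (20.6 to 26.4%). It was lowest on chromosome 3, at 13.8% (11.6 to 16.4%), then 16 and 12, at 14.5% and 15.1%. By gene the order was not the same, with 23.8% of the coding genes of chromosome 15, 22.9% of those of chromosome 11 and 19% of those of chromosome 7 having a peak. The X chromosome was lowest by gene, at 8.28%.

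**Figure D5:**
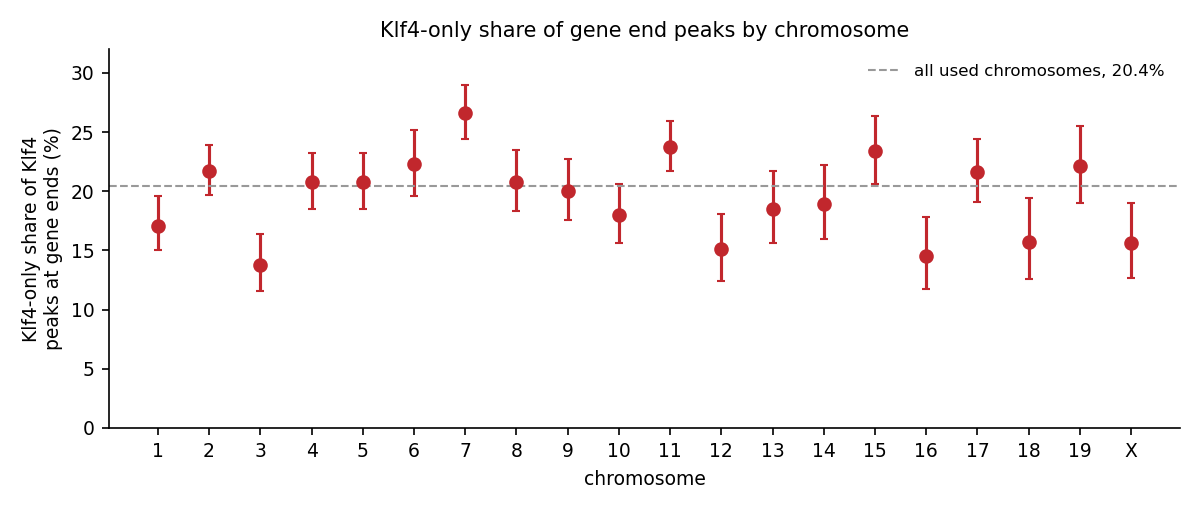
Klf4-only share of the Klf4 peaks at gene ends (%, vertical axis) on each chromosome (horizontal axis), with 95% Wilson intervals and the share over all chromosomes used, 20.4%, as a dashed line. The points run from 13.8% on chromosome 3 to 26.6% on chromosome 7.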

How the data were processed

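ATAC-seq libraries of MIN6 cells, 4 per plasmid, were grouped by their titles. FastQC, Bowtie2, MACS2, DiffBind and build mm10 are named in the submitters' processing notes. Tool options, duplicate handling, read shifting, and whether libraries were merged before or after peak calling are not given in the sources used here. An mRNA-seq library kit stands in the labels beside the ATAC-seq kit and was not resolved. DiffBind output was not used here.

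The authors deposited for each peak a fold enrichment, which is a ratio to local background, and the −log10 of its q-value. These are the peak caller's values and served only to describe and rank peaks within a list. Peaks off chromosomes 1 to 19 and X (215 empty vector, 227 Klf4) were left out. Gene ends and names came from the RefSeq GRCm38.p6 gene table, which holds no exons, so a peak's exon or intron is not stated, and strand came from the RefSeq promoter table for 17274 of 21631 coding genes. Motifs were searched on both strands of its 21020 distinct windows.

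The peaks and gene lists were chosen with earlier results of these data known. Named are the 12 peaks of highest −log10 q, the 5 widest, the 5 of highest fold, genes with at least 3 peaks, listed genes with a peak, up to 4 genes a family, and the 5 peaks on either side of the 1 kb limit. Other Hox, keratin and limit examples were picked after their values were seen. On simulated data all 2000 planted peaks, in a list of 104049, and all 400 test sequences were classified correctly, and bedtools 2.31.1 also gave 3628 peaks. Python 3.11.15, numpy 2.4.6, pandas 2.3.3 and matplotlib 3.10.9 were used.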

Additional observations from a re-analysis of the deposited data

How the results depend on the processing

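No paired analysis was possible because each plasmid has 1 merged peak list, and for the same reason no replicate could be left out. Of 31 alternative values, 15 kept within the interval of the reported value or, for counts, within 1.5 times of it. The frequency of the CACCC box stayed between 77.7 and 80.1% under every alternative run, including 1 window a gene (79.1%), which was chosen after seeing the data. The other results moved with how much was counted. The Klf4-only share of gene-end peaks, reported as 20.4%, was 16.5% with a 500 bp limit, 26.4% with 2500 bp, 26.3% when 50% of a peak had to be covered to count as overlapped, 12.9% with a −log10 q limit of 5, 12% with a width limit of 500 bp and 18.5% when no empty vector peak was allowed within 1 kb. The number of peaks became 6420 with 2500 bp, 1970 with the −log10 q limit and 1773 with the width limit, and the number of genes 5827, 2060 and 1887, as the wider or narrower limits imply by construction. The share at a start, reported as 46.6%, was 55.0% with 500 bp, 48.9% with the 50% overlap, 50.5% with the −log10 q limit and 51.0% with the width limit; the cause was not tested. The depth of the libraries is unknown, and weak peaks near the threshold are those most limited by it.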
